A study of Mus musculus with 2 samples.

Results

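Collagen hydroxylases, the collagen chaperone Serpinh1 and lysyl oxidases were compared in samples labelled as bEnd3 cells that had received a small interfering RNA (siRNA) against Smad4 or a control siRNA. The genes were taken from a named set of 10 (P4ha1, P4ha2, Plod1, Plod2, Plod3, Serpinh1, Lox, Loxl1, Loxl2 and Loxl3), keeping every probe set annotated to 1 of these genes and to no other. The selection gave 16 probe sets for 9 genes, out of 45037 probe sets and 18193 genes. Loxl2 had no such probe set, because both probe sets that list it also list another gene, and no value is given for it. The line named in the labels, bEnd3, is a BALB/c mouse brain microvessel endothelial line transformed by polyoma middle T antigen. Both groups were infected with retrovirus from PLAT-E packaging cells, selected with puromycin and grown in medium with 15% FCS. The Smad4-siRNA group and the Control-siRNA group were represented by a single Affymetrix array each, made with RNA pooled from 2 infections. There were no replicates, so none of the differences below could be tested or set against a spread between cultures, and precision is limited by having 1 array per group.

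Collagen chains are modified in the endoplasmic reticulum before they fold into a triple helix. Prolyl hydroxylases act on prolines and give the helix its thermal stability, lysyl hydroxylases act on lysines and prepare them for cross-linking and sugar addition, and Serpinh1 (HSP47) holds the folded helix on its way through the secretory pathway. Outside the cell, copper-dependent lysyl oxidases oxidise lysines and hydroxylysines of collagen, and lysines of elastin, and so start the covalent cross-links of the matrix. In vessels these enzymes serve the basement membrane and the collagen and elastin of the wall, and several are known targets of TGF-β signalling, which passes through Smad4.

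Promoter sequence was looked at because most of these genes were higher together on 1 array, as given below. The sequence table, from RefSeq on build GRCm38.p6, matched 5 of the 10 genes, namely P4ha1, P4ha2, Plod1, Plod3 and Serpinh1. It did not list Plod2, Lox, Loxl1, Loxl2 or Loxl3. The 250 bases before the annotated start were searched on both strands for ACGTG, a core of the sites that hypoxia-inducible factors bind, since P4ha1 and P4ha2 are known hypoxia-induced genes. It occurred once each in P4ha1, P4ha2, Serpinh1 and Plod3, and was not found in Plod1. The 4 sequences that hold it are shown because they set 3 genes that were higher beside Plod3, which was not, and the capitals mark the match, which reads CACGT where it lies on the other strand.
P4ha1, chr10:59323046-59323295, plus strand: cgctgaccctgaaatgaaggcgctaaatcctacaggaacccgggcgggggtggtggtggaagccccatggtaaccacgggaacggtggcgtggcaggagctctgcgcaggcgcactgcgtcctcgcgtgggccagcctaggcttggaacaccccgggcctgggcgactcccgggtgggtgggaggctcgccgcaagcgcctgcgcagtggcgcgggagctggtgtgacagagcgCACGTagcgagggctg
P4ha2, chr11:54100674-54100923, plus strand: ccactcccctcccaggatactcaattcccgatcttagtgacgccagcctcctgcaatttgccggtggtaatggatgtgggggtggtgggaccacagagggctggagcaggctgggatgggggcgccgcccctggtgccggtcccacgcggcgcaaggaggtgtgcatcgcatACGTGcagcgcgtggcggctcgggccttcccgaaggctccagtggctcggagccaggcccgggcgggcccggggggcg
Serpinh1, chr7:99353240-99353489, minus strand: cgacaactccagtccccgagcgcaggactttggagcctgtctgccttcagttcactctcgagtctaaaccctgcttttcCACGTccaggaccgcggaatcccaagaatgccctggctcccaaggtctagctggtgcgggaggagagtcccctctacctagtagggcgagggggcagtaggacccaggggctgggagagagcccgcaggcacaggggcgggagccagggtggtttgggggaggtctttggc
Plod3, chr5:136986769-136987018, plus strand: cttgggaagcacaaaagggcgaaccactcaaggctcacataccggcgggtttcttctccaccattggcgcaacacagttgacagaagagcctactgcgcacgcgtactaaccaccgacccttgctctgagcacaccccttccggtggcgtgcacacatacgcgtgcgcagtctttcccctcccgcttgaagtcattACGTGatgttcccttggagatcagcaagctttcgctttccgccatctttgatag
The first base of the match lay at position -16 in P4ha1, -78 in P4ha2, -171 in Serpinh1 and -54 in Plod3, counted back from -1, the base before the start. Of all 32851 sequences of the table, 16.6% held ACGTG in the same window. The 5 sequences were 55.6% to 70% G or C, and the share over all sequences was not matched for base composition. The letters CAGAC, which Smad proteins can bind, occurred once each in Plod1 and Serpinh1 and in 42.2% of all sequences. A heat shock element core was searched because Serpinh1 is known to be heat-induced. TTCNNGAA occurred once in P4ha2 and in 7.17% of all sequences, whereas GAANNTTC was in none of the 5 and in 6.69% of all. No match overlapped another in the 5 sequences. These are matches of letters only.

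The sample labelled Smad4-siRNA did not show the fall of Smad4 that its label implies. Smad4, the shared Smad of TGF-β and BMP signalling, had signals of 1165 in that sample and 916 in the Control-siRNA sample in its brightest probe set, with a log2 ratio of 0.35, or -0.07 as deposited. The sample is therefore called by its label throughout, and "higher" and "lower" compare it with the Control-siRNA sample and do not stand for an effect of Smad4 loss. Signals are quantile-normalized MAS5 intensities in arbitrary units. A probe set counted as measured at or above the array median of 22.8, the floor. With 1 signal below the floor, the fold is a bound against the floor ("at least"). The X-linked RNA Xist gave 4476 in the sample labelled Smad4-siRNA, against 20.7 in the Control-siRNA sample, and the Y-linked Eif2s3y, Kdm5d and Uty gave 0.349, 4.69 and 4.03, against 324, 122 and 112, all named after their values were seen. Both samples are labelled bEnd3, yet Xist reached the floor only in the sample labelled Smad4-siRNA and these Y-linked genes only in the Control-siRNA sample. The folds below therefore cannot be taken as changes within 1 line, and a difference between the samples may not come from the siRNA. Whether the samples hold the same cells was not tested. Of 12 endothelial markers, all were at or above the floor in the Control-siRNA sample and 5 in the sample labelled Smad4-siRNA, where 11 were lower by 2-fold or more. The median log2 ratio of genes measured on both arrays was -0.15, and -0.33 for the values as deposited.

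Of the 9 genes, 8 were higher by 2-fold or more in the sample labelled Smad4-siRNA, 0 were lower by as much and 1, Plod3, differed by less than 2-fold. Among all 11581 genes that reached the floor on either array, 16.0% were higher by 2-fold or more and 15.8% were lower. Beside this, 5 of 7 measured fibroblast markers were higher and 11 of 12 endothelial markers lower, and in bulk RNA fewer cells of a type and less RNA per cell cannot be told apart. All 9 genes reached the floor in the sample labelled Smad4-siRNA, and 7 did so in the Control-siRNA sample. The median log2 ratio, bounds included, was 2.22 for the 9 genes and -0.11 for all genes so measured. As a technical error, the pooled SD between probe sets that measure the same gene was 0.47 on the log2 ratio (4546 genes), without any error between arrays or cultures. In the brightest probe set of each gene, the ratio of Plod3 lay within this SD of 0. The ratios or bounds of the other 8 lay farther from 0 than the SD. The SD was drawn from probe sets measured on both arrays and does not cover bounds, and the other Loxl1 probe set had a log2 bound of 0.10.

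**Figure D1:**
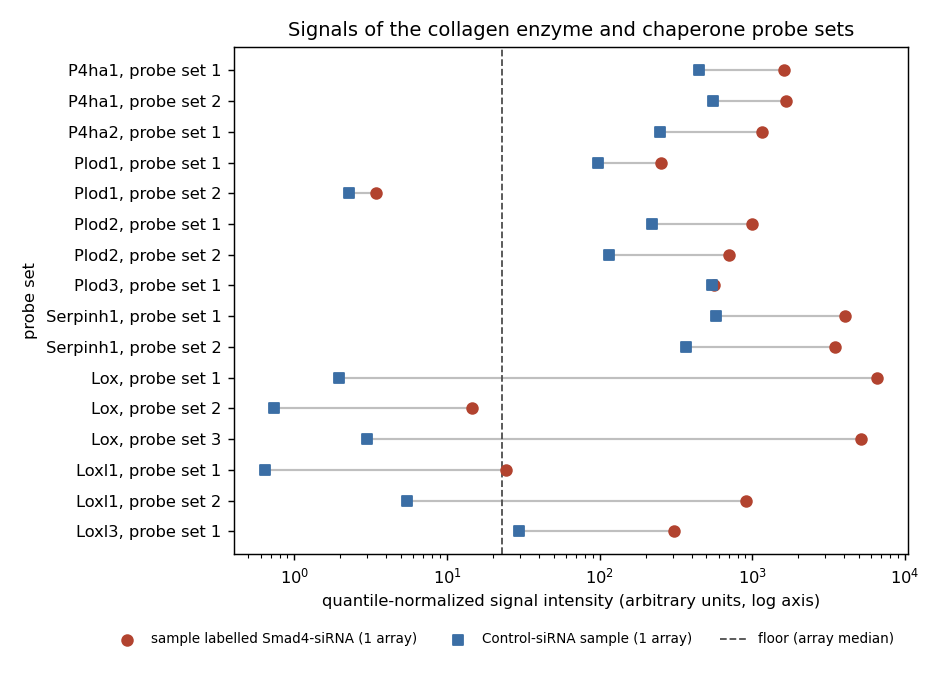
Quantile-normalized signal (arbitrary units, log axis) of the 16 probe sets in the sample labelled Smad4-siRNA (circles) and the Control-siRNA sample (squares), 1 array each, with the floor of 22.8 as a dashed line. The circle lies right of the square in every probe set, by little in Plod3 (561 and 540), which is turned round in the deposited values (496 and 610), and the Control-siRNA signals of Lox and Loxl1 lie left of the floor.

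The prolyl hydroxylase genes were both higher. P4ha1 encodes a catalytic α subunit of the enzyme that hydroxylates prolines throughout the collagen helix. Its brightest probe set gave 1654 in the sample labelled Smad4-siRNA, against 553 in the Control-siRNA sample (deposited values 1464 and 626). The sample labelled Smad4-siRNA was thus 2.99-fold higher, or 2.34-fold in the deposited values. The second P4ha1 probe set had signals of 1599 and 447 in the same order, a 3.57-fold difference. The log2 ratios of the pair, 1.58 and 1.84, differed by 0.26, less than the pooled SD. P4ha2, which encodes another α subunit, had 1 probe set with signals of 1161 in the sample labelled Smad4-siRNA, against 249 in the Control-siRNA sample, a 4.67-fold difference (log2 ratio 2.22). Its ratio was higher than that of 96.8% of the genes measured on both arrays, and that of P4ha1 than 93.7%.

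Of the lysyl hydroxylase genes, Plod1 and Plod2 were higher and Plod3 was not. Plod2 encodes the enzyme that hydroxylates lysines of the collagen telopeptides, the ends from which the more stable cross-links form. Its probe sets had signals of 998 and 698 in the sample labelled Smad4-siRNA, against 218 and 115 in the Control-siRNA sample, and were 4.58-fold and 6.07-fold higher. Their log2 ratios of 2.19 and 2.60 differed by 0.41, again less than the pooled SD. Plod1, whose enzyme acts on lysines within the helix, gave 251 in the sample labelled Smad4-siRNA, against 97.8 in the Control-siRNA sample, a 2.56-fold difference (log2 ratio 1.36). Plod1 stood nearest to the 2-fold line of the genes past it, and its call did not hold when the floor was the 75th percentile, where its bound was 0.98 on the log2 scale, or with the median over its probe sets, where the bound was 0.36. Its second probe set was below the floor on both arrays, at 3.41 and 2.29. Plod3, which encodes an enzyme that also transfers sugars to hydroxylysine and is needed for collagen IV of basement membranes, had signals of 561 and 540 in that order. Its log2 ratio was 0.06 after normalization and -0.30 as deposited, so its sign depended on the scaling.

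Serpinh1 was higher in both of its probe sets. Its product is a chaperone dedicated to procollagen, and cells that make much collagen usually make much of it. The brighter probe set gave 4039 in the sample labelled Smad4-siRNA, against 574 in the Control-siRNA sample (deposited values 3858 and 653), a 7.03-fold difference. The other had signals of 3490 and 365 in the same order, a 9.55-fold difference. The log2 ratios, 2.81 and 3.26, differed by 0.44. Both probe sets carry a suffix that marks sequence shared between transcripts, so Serpinh1 has no value where such probe sets are left out.

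Lox, Loxl1 and Loxl3 were all higher, and Lox and Loxl1 had Control-siRNA signals under the floor. Lox encodes the founding lysyl oxidase, which cross-links collagen and elastin. Of its 3 probe sets, the brightest by mean log2 signal gave 5144 in the sample labelled Smad4-siRNA, against 2.98 in the Control-siRNA sample. Another had 6572 and 1.95 in the same order. Set against the floor, Lox was at least 226-fold higher by the first of these and at least 289-fold higher by the second. The remaining Lox probe set was below the floor on both arrays (14.6 and 0.741), and no fold is given for it.

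Loxl1, whose enzyme is known for the upkeep of elastic fibres, gave 909 in the sample labelled Smad4-siRNA, against 5.47 in the Control-siRNA sample in its brighter probe set. It was at least 39.9-fold higher. Its other probe set had signals of 24.5 and 0.638, barely above the floor on 1 array, with a bound of 1.07-fold, so the probe sets gave the same direction with bounds of very different size. Loxl3, a lysyl oxidase with scavenger receptor domains, was measured on both arrays, with signals of 308 in the sample labelled Smad4-siRNA, against 29.4 in the Control-siRNA sample. The difference was 10.5-fold (log2 ratio 3.39), and 99.0% of the genes measured on both arrays had a smaller ratio. Its Control-siRNA signal stood close to the floor, and raising the floor to the 75th percentile left a bound of 1.28 on the log2 scale.

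Among the 7 genes measured on both arrays the log2 ratios ran, low to high, from Plod3 (0.06) through Plod1 (1.36), P4ha1 (1.58), Plod2 (2.19), P4ha2 (2.22) and Serpinh1 (2.81) to Loxl3 (3.39). Plod1 and P4ha1, with a gap of 0.23, and Plod2 and P4ha2, with a gap of 0.03, did not differ beyond the SD of 0.47 between probe sets. The gap from Plod3 to Plod1 was 1.30, and the other gaps were 0.58 to 0.61. The SD is the error of 1 ratio, and a gap between 2 ratios has a larger one. Gaps of 0.58 to 0.61 therefore do not settle the order of the genes on either side. Lox and Loxl1 have bounds only and no place in this order.

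**Figure D2:**
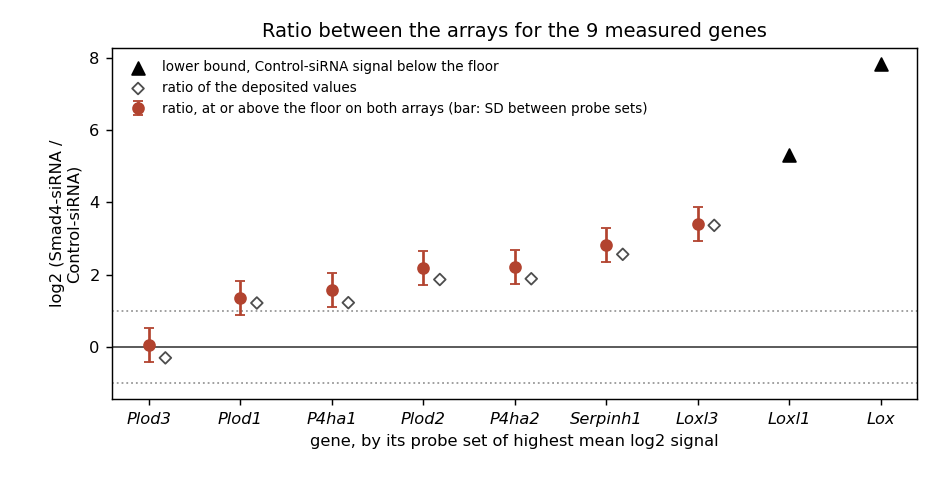
Log2 ratio of the sample labelled Smad4-siRNA over the Control-siRNA sample for the 9 genes, in order of size, with the SD of 0.47 between probe sets as bars, open diamonds for the deposited values, triangles for bounds and dotted lines at 2-fold. Plod3 lies at 0.06, the other measured genes between 1.36 and 3.39, and Loxl1 and Lox have bounds of 5.32 and 7.82.

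Among other enzymes and chaperones that modify collagen, more were higher than lower. Of 17 listed genes, 16 had a probe set of their own and 15 reached the floor. Among these, 7 were higher by 2-fold or more, 2 were lower and 6 lay between, with a median log2 ratio of 0.85. The higher share was 46.7%, against 16.0% of all genes. The lower share, 13.3%, was near the 15.8% of all genes. The lower count was 1 as deposited and after centring and 0 with the floor at the 75th percentile. Among genes measured on both arrays, those farthest from 0 were P3h4, a partner of lysyl hydroxylation (4.87-fold), P3h3 (3.27-fold), the prolyl isomerase gene Fkbp7 (log2 ratio 1.59) and P3h1, a prolyl 3-hydroxylase (2.36-fold), all higher. The other P3h1 probe set had a log2 ratio of 0.93, within 2-fold. P4ha3, a further α subunit gene, had signals of 53.5 and 6.35 and was at least 2.35-fold higher. P4hb, named after its values were seen, encodes the β subunit that joins the α subunits and was 2.29-fold higher (log2 ratio 1.19, or 0.95 as deposited), with signals of 3959 in the sample labelled Smad4-siRNA, against 1731 in the Control-siRNA sample. The lower genes were P3h2, another prolyl 3-hydroxylase, at least 6.64-fold lower with signals of 18.1 and 151, and Loxl4, also named after its values were seen. Loxl4 was the measured lysyl oxidase gene that went the other way, at 30.7 and 68.4 (log2 ratio -1.16, or -0.98 as deposited, within 2-fold), and its second probe set had a log2 ratio of -1.61. P4htm, a transmembrane prolyl hydroxylase that acts on other proteins, was at least 1.33-fold lower.

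The collagen genes on which these enzymes act were higher in most cases. Of 18 collagen genes, 16 reached the floor, of which 14 were higher by 2-fold or more, 0 were lower and 2 lay between, with a median of 4.22. In the Control-siRNA sample 6 of them reached the floor. The higher and lower shares were 87.5% and 0%, against 16.0% and 15.8% of all genes. Col8a1 (20.3-fold), Col5a1 (14.6-fold), Col18a1 (3.79-fold) and Col5a3 (3.60-fold) were farthest from 0 with both signals above the floor, and Col1a2 and Col3a1, chains of the fibrillar collagens, had bounds of 324-fold and 265-fold. The 2 between, named after their values were seen, were Col4a1 and Col4a2 of the basement membrane. Their log2 ratios were -0.77 and -0.33, and that of Col4a1 was -1.10 as deposited, past 2-fold.

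Few procollagen processing genes were measured. Of 9 processing genes, 7 had a probe set and 4 reached the floor, with 2 higher, 1 lower and 1 between. Pcolce, which enhances the cleavage of procollagen ends, had signals of 3039 in the sample labelled Smad4-siRNA, against 14.3 in the Control-siRNA sample and was at least 133-fold higher. Its relative Pcolce2 was at least 2.19-fold lower, at 1.98 and 49.9, and the count of lower processing genes was 0 as deposited, after centring, with the pseudocount and with the floor at the 75th percentile. Bmp1, the proteinase that removes the C-propeptide and activates the Lox precursor, was 2.36-fold higher, and Furin had log2 ratios of 0.12 and, as deposited, -0.12. Of 11 genes for export from the endoplasmic reticulum, 10 reached the floor, of which 3 were higher, 1 was lower and 6 lay between (median 0.54). The higher and lower shares were 30% and 10% for export and 50% and 25% for processing, against 16.0% and 15.8% of all genes. Creb3l1, a transcription factor of collagen secretion, was at least 6.66-fold higher. The coat gene Sec24d was 2.96-fold and Klhl12 2.10-fold higher (log2 ratio 0.97 as deposited), whereas Trappc2 was 3.45-fold lower and Sar1b had a log2 ratio of -0.76, or -1.13 as deposited.

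Elastic fibre genes, the other substrate group of lysyl oxidases, were higher in 4 of the 7 that reached the floor, with 0 lower and 3 between (median 1.31). The higher and lower shares were 57.1% and 0%, against 16.0% and 15.8% of all genes. Emilin1 was at least 24.0-fold and Mfap2 at least 4.22-fold higher, and Ltbp4 was 2.47-fold higher. Elastin itself (Eln) stood near the floor on both arrays, at 22.9 and 34.1, with a log2 ratio of -0.57. Fbln5 and Ltbp1 had log2 ratios of 0.27 (-0.06 as deposited) and -0.19.

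Genes that supply copper to lysyl oxidases or ascorbate to the hydroxylases were mostly within 2-fold. Of the 7 that reached the floor, 0 were higher, 1 was lower (14.3%, against 15.8% of all genes) and 6 lay between, with a median of -0.25. Atox1, the copper chaperone of the secretory pathway, was 2.87-fold lower, with signals of 827 in the sample labelled Smad4-siRNA, against 2372 in the Control-siRNA sample, and its 3 probe sets had log2 ratios between -1.52 and -1.23. The ascorbate carrier Slc23a2 and the copper chaperone Ccs had log2 ratios of -0.67 and -0.45, and the copper importer Slc31a1 had 0.42, with 1.43 in another probe set.

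Hypoxia-response genes, which share known regulation with P4ha1, P4ha2, Plod2 and Lox, were higher in 8 of the 17 that reached the floor, while 0 were lower and 9 lay between (median 0.89). The higher and lower shares were 47.1% and 0%, against 16.0% and 15.8% of all genes. Bnip3 (12.4-fold), the hexokinase gene Hk2 (9.20-fold), Pfkp (6.91-fold) and Ankrd37 (5.55-fold) were farthest from 0. The factor genes Hif1a and Epas1, named after their values were seen, had log2 ratios of 0.89 and -0.03. Another Hif1a probe set had 1.62, past 2-fold, and another Epas1 probe set had -1.48. The glucose carrier gene Slc2a1, likewise named afterwards, had a log2 ratio of -0.49, within 2-fold.

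Markers of other cell types differed beside the collagen enzymes. Of 11 fibroblast markers, 7 reached the floor and 5 were higher by 2-fold or more, 0 were lower and 2 lay between, with a summed signal of 9222 in the sample labelled Smad4-siRNA, against 998 in the Control-siRNA sample. Lum, Thy1, Dpt and Mfap5 were below the floor on both arrays. Of 8 pericyte and smooth muscle markers, 5 reached the floor and 4 were higher, with summed signals of 3012 and 91.9 in the same order, and Rgs5, Myh11 and Cnn1 were below the floor on both. Of the 12 endothelial markers, 11 were lower, 0 higher and 1 between, with summed signals of 693 and 15923. Pecam1, Cldn5, Tek, Tie1, Emcn, Esam and Erg did not reach the floor in the sample labelled Smad4-siRNA. Flt1, counted lower at a log2 ratio of -1.22, had another probe set at 0.14. Eng, counted between at -0.56, had another at -1.90. Fbln1, counted higher with a log2 bound of 7.28, had another probe set at -0.19. Its brightest probe set gave 3539 of the summed fibroblast signal in the sample labelled Smad4-siRNA. Of 7 leukocyte markers 2 reached the floor, with 1 lower and 0 higher (summed signals 76.9 and 883), and of 5 epithelial markers 2 reached it, with 1 higher and 0 lower (144 and 34.0). No marker was at 0, as all deposited values were above 0. Among all genes that reached the floor, 16.0% were higher and 15.8% lower. The part of the markers' cell types in the differences of the collagen enzymes was not tested.

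**Figure D3:**
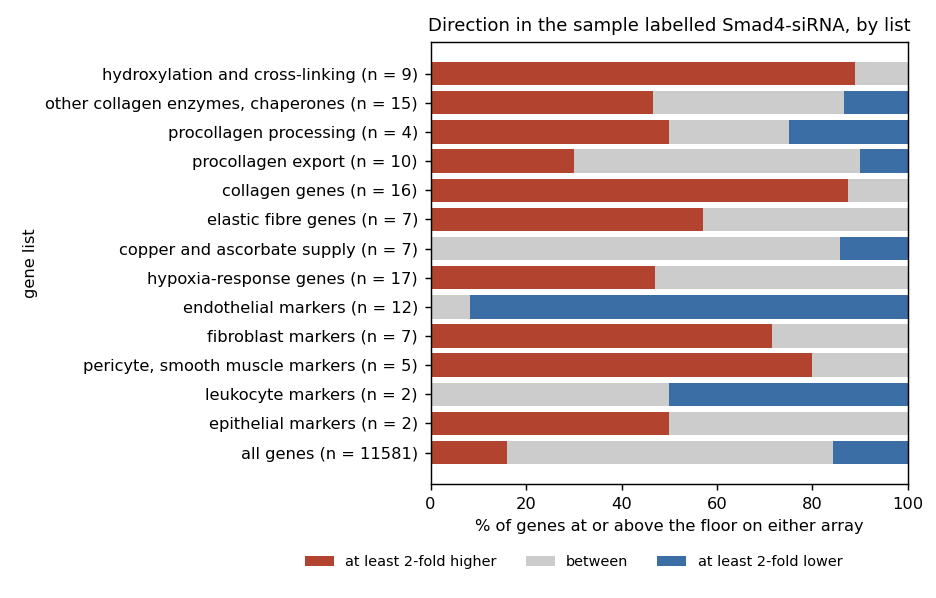
Share of the genes at or above the floor on either array (x axis, %) that were at least 2-fold higher, between or at least 2-fold lower in the sample labelled Smad4-siRNA, for the 9 hydroxylation and cross-linking genes, the related lists, the cell type markers and all 11581 genes, with n beside each name. The hydroxylation and cross-linking genes (8 of 9 higher) and the collagen genes (14 of 16 higher) have the widest red bars, and the endothelial markers (11 of 12 lower) the widest blue one.

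The direction of the 8 higher genes did not depend on the scaling. Over the deposited values and 8 further ways of processing, counting the one used above, P4ha1 had log2 ratios of 1.23 to 1.74, P4ha2 of 1.89 to 2.38, Plod2 of 1.87 to 2.40 and Serpinh1 of 2.56 to 3.03. Plod3 ran from -0.30 to 0.19 and was within 2-fold in every one. Bounds moved most, and that of Lox ran from 5.34 to 9.84 between the floors at the 75th and 25th percentile. That of Loxl1 was 2.84 and 7.34 at these floors, and lowest, at 2.71, with the median over its probe sets.

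**Figure D4:**
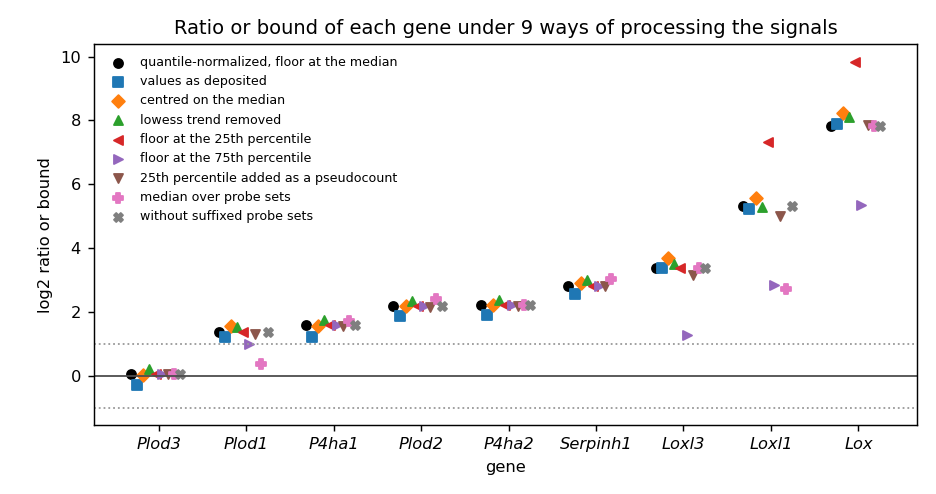
Log2 ratio or bound (y axis) of the 9 genes under 9 ways of processing the signals, with dotted lines at 2-fold. Plod3 stays between -0.30 and 0.19, and Plod1 falls under the 2-fold line with the floor at the 75th percentile (0.98) and with the median over probe sets (0.36).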

How the data were processed

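Total RNA (6 ug per sample) was labelled by the maker's standard protocol, per the labels' protocols. The deposited table holds 1 linear signal intensity per probe set and sample. The submitters' processing notes name MAS5, and the sources used here do not give its version, scaling target or detection calls. The genes and lists were chosen with earlier results of these data known.

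After 64 control probe sets were left out, log2 signals were quantile normalized, because the 2% trimmed means of the deposited values were 114 (Smad4-siRNA) and 138 (Control-siRNA). Each array's median was the floor, in place of detection calls. Each gene was read from the probe set with the highest mean log2 signal. Gene names came from the platform annotation, updated by Entrez identifier against RefSeq's GRCm38.p6 table, which held 18032 of 18193 genes. With 1 array per group no test was made, and the threshold was 2-fold, by ratio or bound. Named were the 10 genes, Smad4 and, from each pathway list, up to 4 genes measured on both arrays farthest from 0 and up to 2 largest bounds each way. The comparison was tested on data simulated from the Control-siRNA array, with changes planted only in genes well above the floor there. Bounds such as those of Lox and Loxl1 were not covered by it. Alternatives were other scalings (as deposited, centred, lowess with fraction 0.3), floors at the 25th and 75th percentile, a pseudocount, and other choices of probe set. Python 3.11.15, numpy 2.4.6, pandas 2.3.3 and statsmodels 0.14.6 were used.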

Additional observations from a re-analysis of the deposited data

How the results depend on the processing

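Among the 9 genes, 7 or 8 passed 2-fold upward, 0 passed it downward, and their median log2 ratio moved by less than the SD between probe sets of 0.47, in all 8 alternatives. Of 71 ratios or bounds of single genes, 70 were above 0 (the exception being Plod3 as deposited), 64 moved by less than that SD and 7 moved more. Part of this count was fixed beforehand. A change of floor cannot move a gene that stays above it on both arrays, and the choice of probe set cannot move a gene with 1. A bound cannot change its sign. All 71 come from the same 2 arrays, so the count says nothing of replication. Some counts of the related lists moved. At the 75th percentile floor, higher genes numbered 4 among other collagen-modifying enzymes, 1 in elastic fibres, 1 in processing and 1 in export, and lower genes 0 among the other enzymes and 0 in processing. As deposited, lower genes numbered 1 among collagen genes, 1 among the other enzymes, 2 in export and 0 in processing, and after centring 1 among the other enzymes and 0 in processing. Lower processing genes numbered 2 at the 25th percentile floor and 0 with the pseudocount. With the median over probe sets, 2 copper and ascorbate genes were lower and 1 processing gene was higher. Without suffixed probe sets, 1 processing gene was higher and 0 export genes were lower. The cause of these moves was not tested, except that a higher floor leaves fewer genes measured. Over all genes, 16.0% were higher and 15.8% lower, against 15.2% and 19.8% as deposited and 20.6% and 12.2% after centring. No paired analysis was possible because each group has 1 array. Signals below the floor give bounds only, which limits Lox and Loxl1.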

Other observations

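The Lox probe set that stayed below the floor on both arrays had deposited values of 15.6 in the sample labelled Smad4-siRNA, against 0.731 in the Control-siRNA sample, and the like Plod1 probe set 3.66 and 2.13. No fold is given for them, and the larger value lay in the sample labelled Smad4-siRNA in each.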
